A study of Homo sapiens with 17 samples.

Results

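Distal HNRNPU sites that carried H3K4me1 but not H3K27ac in control cells were examined in the human embryonic stem cell line H1, an established line. A site was a summit, the base of highest signal in a called peak, of the first HNRNPU library with a summit of the second library within 250 bp. It lay on chromosomes 1 to 22 and more than 1000 bp from any end of a RefSeq protein-coding gene. It had a summit within 500 bp in both H3K4me1 lists of control cells and in neither H3K27ac list. Of 16737 HNRNPU sites on these chromosomes, 9711 were distal and 1846 met the whole rule, which was 11.0% of all sites and 19.0% of the distal ones. These 1846 are called H3K4me1-only sites below.

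HNRNPU, also known as SAF-A, is an abundant nuclear protein that binds RNA and DNA and takes part in RNA processing and in the organisation of chromatin in the nucleus. H3K4me1 is placed by the methyltransferases KMT2C and KMT2D and marks enhancers, whether or not they are in use. H3K27ac is placed by EP300 and CREBBP and marks active enhancers and promoters. An enhancer with H3K4me1 and without H3K27ac is usually called primed, and in pluripotent stem cells many enhancers of later lineages are in this state. POLIIS2P is taken here as RNA polymerase II phosphorylated at serine 2 of its C-terminal repeats, the form found during elongation.

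The data were 17 CUT&Tag libraries, in which Tn5 transposase tethered to an antibody inserts sequencing adapters next to the antibody's target. HNRNPU was knocked down with shRNA virus (shHNRNPU#1 or shHNRNPU#2), control cells carried an shRNA to luciferase (shLUC), and infected cells were kept by puromycin, whereas the 2 HNRNPU libraries came from untransfected cells. H3K4me1 and H3K27ac were each profiled in 4 shHNRNPU libraries (2 per shRNA) and 2 shLUC libraries, and POLIIS2P in 1 shHNRNPU#1 and 2 shLUC libraries. All groups were of the same line, HNRNPU binding after the knockdown was not among the measurements, and nothing in the labels says that repeats were separate cultures, so p-values measure only the spread between these libraries.

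For the 4 shLUC histone libraries the sample title and the file name gave opposite antibodies, and the rule follows the file names. Among the 20000 highest-scoring summits, the libraries titled H3K27ac and named H3K4me1 in the file shared 68.2% to 73.5% with shHNRNPU H3K4me1 libraries and 18.2% to 25.8% with shHNRNPU H3K27ac libraries. Those titled H3K4me1 and named H3K27ac shared 20.9% to 24.3% with shHNRNPU H3K4me1 libraries and 46.4% to 55.6% with shHNRNPU H3K27ac libraries. By the titles the rule takes 268 other sites, and the values at those are given with the alternatives. Of 5 genes used as a check of pluripotent cells, DNMT3B, LIN28B, NANOG and SOX2 had an H3K27ac summit inside or within 1000 bp in 6 of 6 libraries and POU5F1 in 5 of 6. Read depth was unknown. The shHNRNPU lists held 147145 to 214333 summits for H3K4me1 and 40487 to 85142 for H3K27ac, and the POLIIS2P lists 79949 to 87456. By file name, shLUC repeats 1 and 2 held 179137 and 181357 for H3K4me1 and 62449 and 90914 for H3K27ac. A longer list has more chances of a summit at any site.

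The sites were distal to the outer ends of protein-coding genes, but some lay at a transcription start. RefSeq promoter windows, from 250 bases before to 50 after a start, were matched on 21 of the 22 autosomes. Of 1769 H3K4me1-only sites there, 98 lay inside a window (5.54%, Wilson 95% interval 4.57 to 6.71), against 8.11% of active distal HNRNPU sites and 0.899% of primed sites lacking HNRNPU. The last class is placed by its control H3K4me1 summit, and placed in that way the H3K4me1-only sites gave 4.92%. The 98 sites fell in 103 windows, 57 of protein-coding genes, where the start lies inside the gene's outer bounds, and 46 of lncRNA genes. The 250 bases before the start are shown for the 5 such sites with the highest HNRNPU score and for PAX9 and KLF5, a pair of developmental regulators. The sequences are RefSeq's on GRCh38.p14, written 5′ to 3′ on the gene's strand, and capitals mark the bases within 10 of the HNRNPU summit.
UBE2D3 (chr4:102828181-102828430, minus strand): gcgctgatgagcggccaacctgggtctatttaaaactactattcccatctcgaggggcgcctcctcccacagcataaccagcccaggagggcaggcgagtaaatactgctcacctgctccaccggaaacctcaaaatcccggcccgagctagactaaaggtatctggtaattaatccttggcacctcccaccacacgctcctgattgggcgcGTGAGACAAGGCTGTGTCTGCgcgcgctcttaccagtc
LOC112267988 (chr7:143836513-143836762, plus strand): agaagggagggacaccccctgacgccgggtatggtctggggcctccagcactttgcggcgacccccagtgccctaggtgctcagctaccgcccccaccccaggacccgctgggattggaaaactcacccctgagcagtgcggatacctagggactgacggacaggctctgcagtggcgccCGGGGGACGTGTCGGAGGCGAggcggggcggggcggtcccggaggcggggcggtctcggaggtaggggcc
GNAI2 (chr3:50235954-50236203, plus strand): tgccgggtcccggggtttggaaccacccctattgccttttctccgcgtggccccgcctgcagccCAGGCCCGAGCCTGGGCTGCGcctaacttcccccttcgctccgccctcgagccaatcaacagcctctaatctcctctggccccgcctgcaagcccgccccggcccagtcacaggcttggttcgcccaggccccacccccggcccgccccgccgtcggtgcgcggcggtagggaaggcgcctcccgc
LOC105376957 (chr3:13895309-13895558, plus strand): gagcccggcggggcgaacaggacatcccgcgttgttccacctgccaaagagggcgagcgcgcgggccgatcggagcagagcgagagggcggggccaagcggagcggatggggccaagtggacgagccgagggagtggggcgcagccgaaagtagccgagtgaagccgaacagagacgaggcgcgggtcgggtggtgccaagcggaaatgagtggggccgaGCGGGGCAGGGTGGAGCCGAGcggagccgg
HEXIM2 (chr17:45161625-45161874, plus strand): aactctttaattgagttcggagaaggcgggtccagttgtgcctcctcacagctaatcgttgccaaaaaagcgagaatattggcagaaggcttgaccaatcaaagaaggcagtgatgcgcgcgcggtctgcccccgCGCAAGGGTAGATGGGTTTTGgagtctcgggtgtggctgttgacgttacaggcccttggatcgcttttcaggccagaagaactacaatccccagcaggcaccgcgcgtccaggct
PAX9 (chr14:36661610-36661859, plus strand): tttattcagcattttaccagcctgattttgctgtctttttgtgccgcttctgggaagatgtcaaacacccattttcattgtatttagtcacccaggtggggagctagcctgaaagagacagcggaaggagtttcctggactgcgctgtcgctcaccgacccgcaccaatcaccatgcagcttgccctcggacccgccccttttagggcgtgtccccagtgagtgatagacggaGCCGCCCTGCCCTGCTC
KLF5 (chr13:73058755-73059004, plus strand): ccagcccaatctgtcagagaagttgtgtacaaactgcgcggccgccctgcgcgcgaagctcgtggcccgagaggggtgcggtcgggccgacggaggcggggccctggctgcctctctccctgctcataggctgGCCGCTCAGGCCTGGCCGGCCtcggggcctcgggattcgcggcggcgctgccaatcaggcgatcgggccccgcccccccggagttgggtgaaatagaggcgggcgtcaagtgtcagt

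UBE2D3 encodes a ubiquitin-conjugating enzyme, GNAI2 an inhibitory G protein subunit and HEXIM2 an inhibitor of the elongation kinase P-TEFb. PAX9 and KLF5 are transcription factors, of tooth, thymus and palate development and of the naive pluripotent network respectively. LOC112267988 and LOC105376957 are lncRNA genes, and HEXIM2-AS1 shares the HEXIM2 site. The HNRNPU summit lay before the start in each, at base -28 relative to it in UBE2D3, -60 in LOC112267988, -176 in GNAI2, -20 in LOC105376957, -105 in HEXIM2, -7 in PAX9 and -107 in KLF5. Over the 103 windows the summit's median position was -77 relative to the start (interquartile range -135.5 to -18.5).

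The windows with an H3K4me1-only site were GC-rich, with a median GC content of 65.0% and 21 CG dinucleotides, against 58.7% and 14 over all 33558 windows. On either strand the GC box GGGCGG was in 61.2% of them (45.0% of all windows) and CCAAT in 41.7% (34.4%). TATAAA was less frequent, in 4.85% against 11.6%. The E-box CACGTG was in 10.7% (7.15%), the octamer ATGCAAAT in 2.91% (1.75%) and the cyclic AMP response element TGACGTCA in 0.971% (1.86%). These matches describe letters in the windows and no factor was measured there. POLIIS2P had a summit at 63.3% to 73.5% of the sites inside windows in its 3 libraries and at 52.7% to 58.8% of the other H3K4me1-only sites. At active HNRNPU sites inside windows the share was 91.4% to 95.1%.

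Of the 1769 sites matched to promoter windows, 227 (12.8%) lay inside or within 1000 bp of one. Among all 1846, a count of 917 (49.7%, Wilson interval 47.4 to 52.0) lay inside a protein-coding gene, compared with 55.7% of the 4521 active distal HNRNPU sites, which had both marks in both control repeats, and 55.7% of the 68546 primed sites lacking HNRNPU. The latter were control H3K4me1 summits chosen by the same distance and mark rules with no HNRNPU summit within 1000 bp. The median distance to the nearest end of a protein-coding gene was 16.8 kb (interquartile range 5.10 to 53.6) at H3K4me1-only sites, 23.3 kb at active sites and 38.8 kb at primed sites lacking HNRNPU. Ends of noncoding genes lay within 1000 bp of 231 sites (12.5%), against 12.0% of active sites and 5.53% of sites lacking HNRNPU. Placed by their control H3K4me1 summit, as the sites lacking HNRNPU are, the H3K4me1-only sites gave 49.7%, 16.7 kb and 12.2% for these 3 measures. Wilson intervals cover counting error only, and neighbouring sites can share a gene.

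The nearest H3K27ac summit of control cells was a median of 8.69 kb away. It lay more than 5000 bp away at 1269 sites (68.7%) and under 2000 bp away at 210 (11.4%), and the rule kept all of them beyond 500 bp. The share of distal HNRNPU sites that were H3K4me1-only ranged from 12.0% on chromosome 19 to 24.8% on chromosome 11, with a median of 18.9%. The separately deposited list of 48095 HNRNPU intervals for both repeats together covered 1815 of the 1846 sites (98.3%).

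By the thresholds of the rule, the sites just inside lay 250 bp from the second repeat's summit, 1009 bp from a gene end, 500 bp from an H3K4me1 summit and 501 bp from an H3K27ac summit, and the nearest outside at 251, 999, 513 and 497 bp. Failing the H3K27ac condition alone removed 6300 sites, the second repeat alone 3566, the gene-end distance alone 738 and the H3K4me1 condition alone 621. The HNRNPU score of a site is given as a percentile within its list, where 100 is the highest-scoring summit. The median over H3K4me1-only sites was 56.6 and 55.1 in the 2 repeats, and over active sites 71.4 and 70.8. These values describe the files that chose the sites and were not tested.

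The 5 sites with the highest HNRNPU percentile were in part remote. The highest was on chromosome 21 at base 6370205, 74664 bp from the nearest protein-coding gene, with HNRNPU percentiles of 99.9 and 99.9. It had H3K27ac at percentiles of 96.4 and 97.7 with shHNRNPU#1 and of 98.5 in 1 shHNRNPU#2 library. The nearest control H3K27ac summits lay at -842 and -940 bp, measured as summit minus site. POLIIS2P was there with shHNRNPU#1 at 98.6, and its nearest shLUC summits lay at -600 and -696 bp. The next was on chromosome 7 at base 25862400, 289798 bp from NFE2L3, with POLIIS2P percentiles of 95.3 in shHNRNPU#1 and 87.1 and 89.3 in shLUC. The third was the UBE2D3 site shown above, at base 102828208 of chromosome 4. Its H3K4me1 percentiles were 70.2 and 70.6 with shHNRNPU#1, 79.2 and 86.6 with shHNRNPU#2, and 66.1 and 57.6 in shLUC. H3K27ac appeared in 1 library of each shRNA, at 98.2 and 95.4, and its nearest control summits lay beyond 1000 bp. POLIIS2P reached 98.1 there with shHNRNPU#1 and 98.5 and 98.5 in shLUC, so the 3 libraries stood close together. The fourth was the LOC112267988 site, with POLIIS2P in the shHNRNPU#1 library alone at a percentile of 87.6. The fifth lay inside SAXO5 on chromosome 19 at base 7506615, 1835 bp from its end, with a mean HNRNPU percentile of 98.5 and POLIIS2P in all 3 libraries.

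The question of whether H3K4me1 stayed at these sites after the knockdown was addressed in the 4 shHNRNPU libraries, which the rule did not use. An H3K4me1 summit lay within 500 bp of 91.3% and 91.1% of the sites with shHNRNPU#1 and of 95.0% and 97.6% with shHNRNPU#2, a mean of 93.8% ± 3.14 (SD, n = 4). Every library was above 90%, and both shHNRNPU#2 libraries were above both shHNRNPU#1 libraries. The same order was found at active sites (94.7% and 96.3% against 97.9% and 99.0%). It was also found at primed sites lacking HNRNPU (69.9% and 71.6% against 81.1% and 89.6%). At active distal HNRNPU sites the share was 97.0% ± 1.88 and at the 348 distal HNRNPU sites without either mark in control cells 16.2% ± 6.91. The H3K4me1-only sites were below the active sites in 4 of 4 libraries, with a mean difference of -3.22 percentage points (-5.22 to -1.43) and an exact two-sided sign-flip permutation p of 0.13, which is the lowest that 4 libraries allow. The control score differed between these classes too. Median H3K4me1 percentiles in the shLUC libraries were 77.0 and 76.8 at H3K4me1-only sites and 88.1 and 89.2 at active sites. The part of the control score in the difference was not tested.

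H3K4me1 summits were recovered more often at primed sites with HNRNPU than at primed sites lacking it, in shHNRNPU cells and, as given below, also in shLUC cells. For this comparison both classes were anchored on the control H3K4me1 summit. In the shHNRNPU libraries the share was 93.6% ± 3.05 with HNRNPU and 78.1% ± 9.13 without, higher in 4 of 4 libraries by 15.5 points (7.84 to 21.2, exact sign-flip permutation p = 0.13, the smallest possible). The control H3K4me1 score differed between the classes, since 880 of the 1846 sites with HNRNPU were in the highest quintile of all these sites by that score and 112 in the lowest. Within the lowest quintile the shares were 73.2% and 56.3%, and within the highest 99.5% and 96.1%. The mean difference was 16.9 points in the lowest quintile and 7.18, 9.64, 7.18 and 3.47 in the following ones, so it was positive in each and below the pooled 15.5 in 4 of the 5.

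**Figure D1:**
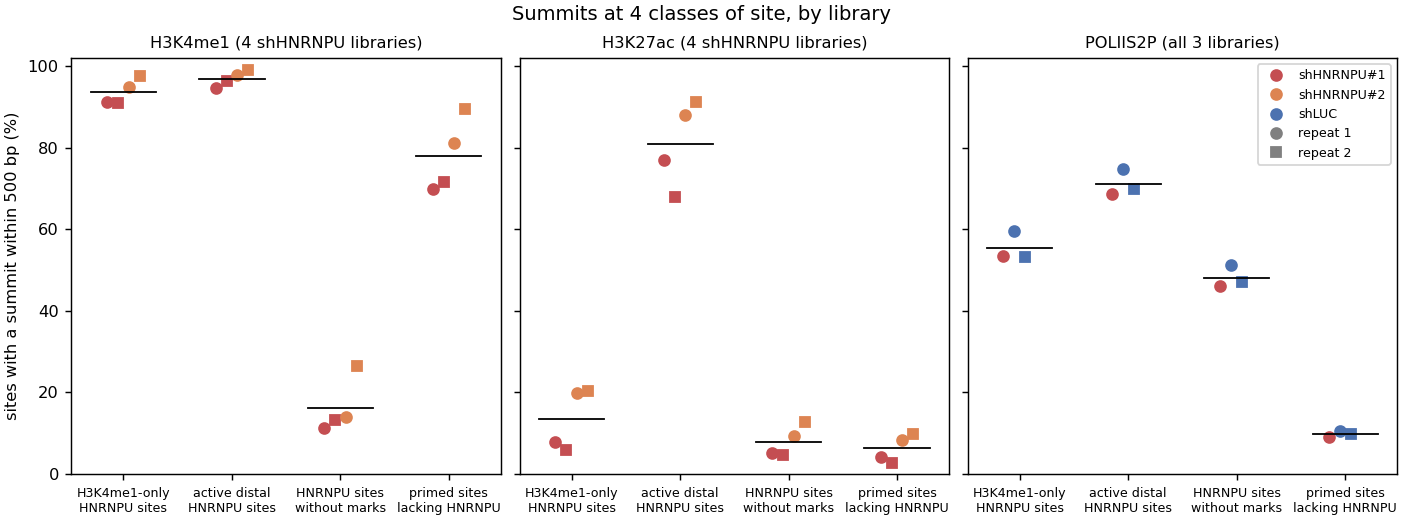
Share of sites (%) with a summit within 500 bp (y axis) in 4 classes of site (x axis) for H3K4me1 and H3K27ac in 4 shHNRNPU libraries each and for POLIIS2P in 3 libraries. Points are libraries, coloured by shRNA and shaped by repeat, and lines are means. Distances are from the HNRNPU summit, or from the control H3K4me1 summit for sites lacking HNRNPU. H3K4me1-only sites sit at 91.1% to 97.6% for H3K4me1, at 5.96% to 20.4% for H3K27ac and at 53.3% to 59.7% for POLIIS2P.

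Site by site, 1546 of the 1846 had H3K4me1 in all 4 shHNRNPU libraries, 177 in 3, 92 in 2, 24 in 1 and 7 in none. The 7 without it were 0.379% of the sites, near the 0.325% found among all 12931 HNRNPU sites with H3K4me1 in both control libraries (42 sites). Of these 7, the one with the highest HNRNPU score lay on chromosome 2 at base 204072652, 111075 bp from ICOS, a T-cell costimulatory receptor gene. Its control H3K4me1 percentiles were 45.9 and 72.2, and H3K27ac was present with shHNRNPU#2 at 87.0 and 54.0 and absent with shHNRNPU#1. The next 4 were near SMCO1 and COPS8 and inside TAFA5 and GXYLT2. The SMCO1 site had POLIIS2P in 2 of 3 libraries, the TAFA5 site in 3 of 3 and the others in none.

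The strongest H3K4me1 in shHNRNPU cells was on chromosome 4 at base 186133032, inside FAM149A, with a mean percentile of 99.991 over the 4 shHNRNPU libraries and of 99.991 over the 2 shLUC libraries. The following sites lay near FOXP4 and inside ABCA1, CTBP2 and CLYBL, with mean percentiles of 99.916, 99.916, 99.905 and 99.877. FOXP4 encodes a forkhead transcription factor, ABCA1 a cholesterol transporter and CTBP2 a corepressor. The CTBP2 site also held POLIIS2P in all 3 libraries at a mean percentile of 98.1, whereas the FAM149A and CLYBL sites held it in 1 of 3.

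H3K27ac, which the rule required to be absent in control cells, was found at a minority of the sites in shHNRNPU cells. The share was 7.91% and 5.96% with shHNRNPU#1 and 19.8% and 20.4% with shHNRNPU#2, a mean of 13.5% ± 7.66 (SD, n = 4). The shRNAs did not overlap and differed by 13.2 points, and the exact permutation p was 0.333, the lowest possible for 2 against 2 libraries. The other classes did not overlap either. Active sites stood at 76.9% and 67.8% against 88.1% and 91.2%, and primed sites lacking HNRNPU at 4.18% and 2.76% against 8.25% and 9.89%. HNRNPU sites without marks stood at 5.17% and 4.60% against 9.20% and 12.6%. The order of the shRNAs was therefore not particular to the H3K4me1-only sites. The lists differed in length too, with 51655 and 40487 summits for shHNRNPU#1 and 75264 and 85142 for shHNRNPU#2. With every list cut to its 40487 highest-scoring summits the shares were 5.69% and 5.96% against 10.2% and 9.05%, and the part of list length or of depth in the remaining difference was not tested. For H3K4me1 the corresponding shares, at 147145 summits, were 91.3% and 90.9% against 92.9% and 94.5%.

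Compared with primed sites lacking HNRNPU, H3K27ac was more frequent at those with it in 4 of 4 shHNRNPU libraries and, as given below, also in shLUC cells. In the shHNRNPU libraries the difference was 7.13 points (3.31 to 11.5, exact sign-flip permutation p = 0.13, the smallest possible), from 13.4% ± 7.46 against 6.27% ± 3.36. By quintile of control H3K4me1 score it was 5.26, 5.30, 7.20, 5.08 and 6.95 points. Active distal HNRNPU sites kept H3K27ac at 81.0% ± 10.7, so the classes set apart by the control libraries remained apart in the shHNRNPU libraries. At the level of single sites, 1168 had H3K27ac in no shHNRNPU library, 433 in 1, 182 in 2, 50 in 3 and 13 in all 4. The 13 were 0.704% of the sites, below the 0.949% among all 3690 HNRNPU sites without H3K27ac in either control library (35 sites).

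Among those 13, the site inside DHRS7, a short-chain dehydrogenase gene, had the highest H3K27ac score. It lay on chromosome 14 at base 60161709 and reached H3K27ac percentiles of 93.4 and 95.1 with shHNRNPU#1 and 95.1 and 98.6 with shHNRNPU#2, while the nearest control H3K27ac summits were 3515 and 3269 bp away. Its H3K4me1 percentiles were 92.6, 97.5, 97.7 and 98.4 in these cells and 98.2 and 99.0 in shLUC. The other 4 of highest score were near NRROS and LOC124901415 and inside ADAM23 and ATG16L2. Measured as summit minus site, the nearest control H3K27ac summits lay at -547 and -664 bp for NRROS and at 801 and 685 bp for ADAM23, so just outside the 500 bp of the rule, and at -1596 and -1477 bp for ATG16L2 and 8874 and 8926 bp for LOC124901415. Because the rule required control H3K27ac to be absent, these values cannot be set against shLUC. In the next comparison the shLUC library that is read did not choose the sites.

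To compare shHNRNPU with an shLUC library that did not choose the sites, sites were chosen again with 1 shLUC repeat and read in the other. The choosing library was still of shLUC cells, so selection by a state shared between the repeats remains possible. With repeat 1 choosing, 3444 sites were found, and with repeat 2 choosing 2405. H3K4me1 was present at 93.9% of the 3444 in the held-out shLUC library and at 90.2%, 89.8%, 93.7% and 96.4% in the shHNRNPU libraries, in the order of shHNRNPU#1 and then shHNRNPU#2. Of the 2405 it was present at 93.0% in the held-out library and at 89.4%, 88.7%, 92.5% and 96.1% in the others. The mean difference over both was -1.35 points and ranged from -4.28 to 3.16. In both choices the library above the control was shHNRNPU#2 replicate 2, which had the longest list (214333 summits), and the other 3 lay below it. Without that library the mean was -2.74 points (-4.28 to -0.26), without shHNRNPU#1 replicate 1 or 2 it was -0.58 or -0.40, and at equal list length it was -0.51. Primed sites lacking HNRNPU, chosen with the same shLUC repeat, had H3K4me1 at 73.5% and 70.3% in the held-out shLUC libraries. Their shares in the shHNRNPU libraries were 59.8% to 79.7% with repeat 1 choosing and 57.1% to 78.8% with repeat 2. The lower share of that class was thus also present in control cells.

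H3K27ac was spread more widely in the same comparison. Of the 3444 sites it was found at 42.7% in the held-out shLUC library, at 18.7% and 13.6% with shHNRNPU#1 and at 34.6% and 37.0% with shHNRNPU#2. Of the 2405 it was found at 17.3% in the held-out library, at 11.6% and 8.44% with shHNRNPU#1 and at 24.4% and 25.7% with shHNRNPU#2. At equal list length the shares were 21.1% against 14.7%, 13.6%, 22.2% and 19.7% for the 3444 sites, and 10.9% against 8.98%, 8.44%, 13.5% and 13.1% for the 2405. The mean difference with all summits was -8.19 points (-29.0 to 8.44), with no test because a single control library was left on each side. At equal list length it was -1.73 points, and leaving out 1 shHNRNPU library gave -11.4 to -4.61, the latter without shHNRNPU#1 replicate 2. The shHNRNPU#1 libraries were below the control in both choices and the shHNRNPU#2 libraries on either side of it. Primed sites lacking HNRNPU, chosen with the same shLUC repeat, had H3K27ac at 12.7% and 5.33% in the held-out shLUC libraries. At equal list length these shares were 3.92% and 2.76%. The higher share at sites with HNRNPU was thus also present in control cells.

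**Figure D2:**
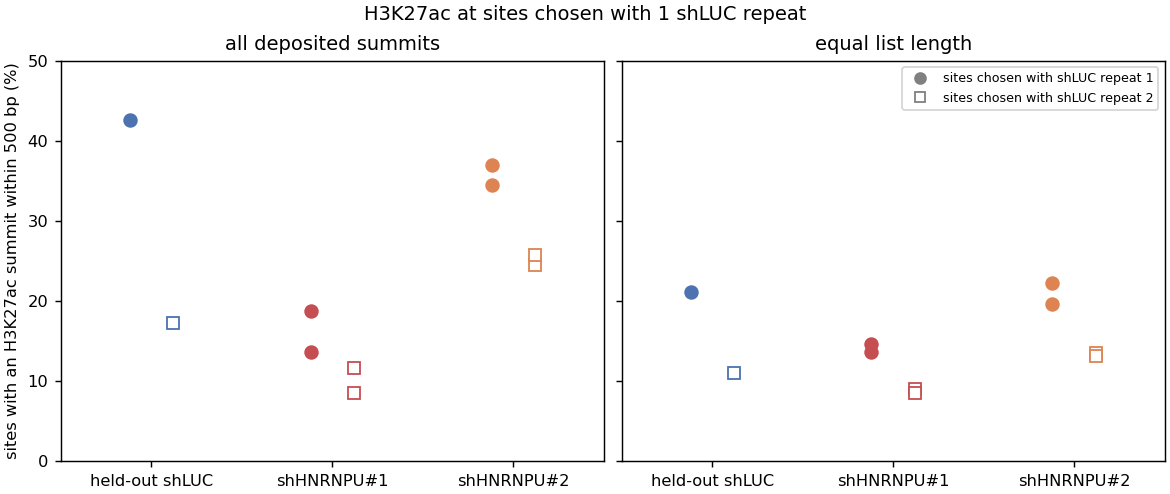
Share of sites (%) with an H3K27ac summit within 500 bp (y axis) in the held-out shLUC library and the shHNRNPU libraries (x axis), with all deposited summits on the left and equal list length on the right. Each point is 1 library, filled for the 3444 sites chosen with shLUC repeat 1 and open for the 2405 chosen with repeat 2. The held-out control is at 42.7% and 17.3% with all summits and at 21.1% and 10.9% at equal length.

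POLIIS2P, which the rule did not use, was at over 50% of the H3K4me1-only sites. A summit lay within 500 bp of 53.6% of them with shHNRNPU#1 and of 59.7% and 53.3% in shLUC, a mean of 55.5% ± 3.61 (SD, n = 3). The shHNRNPU#1 library was between the shLUC libraries. Its difference from their mean was -2.93 points, with an SD between the shLUC libraries of 4.52 and no test for a single library. Active distal HNRNPU sites had POLIIS2P at 71.1% ± 3.18 and distal HNRNPU sites without marks at 48.1% ± 2.72. H3K4me1-only sites were below the active ones in 3 of 3 libraries, with a mean difference of -15.6 points (-16.6 to -15.0, exact sign-flip permutation p = 0.25, the smallest that 3 libraries allow).

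Primed sites with HNRNPU and without it differed most in POLIIS2P. Anchored on the control H3K4me1 summit, the share was 54.9% ± 3.57 with HNRNPU and 9.83% ± 0.731 without, a difference of 45.0 points (42.8 to 48.4, exact sign-flip permutation p = 0.25, the smallest possible). The ranges over libraries were far apart. The difference held inside protein-coding genes, with 64.0% against 13.7%, and between them, with 45.9% against 4.98%. It held where control H3K27ac was over 5000 bp away, with 49.0% against 7.81%, and between 500 and 5000 bp, with 67.7% against 13.1%. In the quintiles of control H3K4me1 score it was 34.6, 44.6, 45.5, 44.7 and 42.2 points. Accessibility of the DNA, which can add signal to any CUT&Tag library, was not measured, and its part in this difference was not tested.

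**Figure D3:**
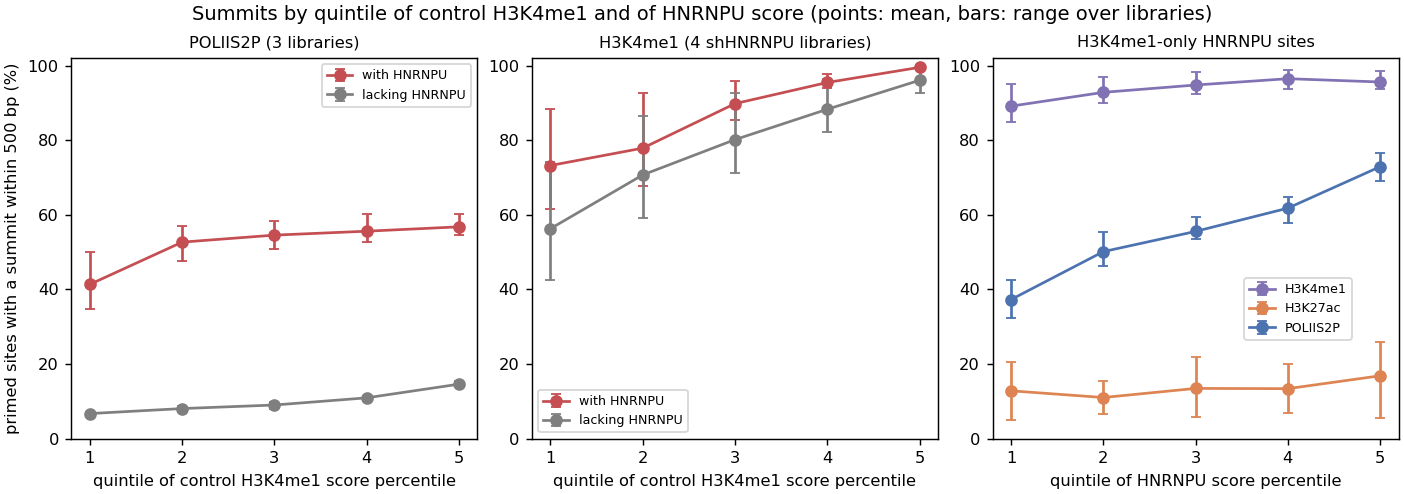
Share of sites (%) with a summit within 500 bp (y axes) by quintile of control H3K4me1 score percentile for primed sites with and lacking HNRNPU (left, POLIIS2P; middle, H3K4me1), and by quintile of HNRNPU score percentile for H3K4me1-only HNRNPU sites (right). Points are means and bars the lowest and highest library. POLIIS2P is at 41.4% to 56.8% with HNRNPU and 6.74% to 14.6% without, and goes from 37.3% to 72.9% with HNRNPU score.

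Among the H3K4me1-only sites POLIIS2P followed the HNRNPU score. From the lowest to the highest quintile of HNRNPU percentile the share was 37.3%, 50.1%, 55.6%, 61.8% and 72.9%, whereas H3K4me1 in shHNRNPU cells was at 89.1%, 92.8%, 94.8%, 96.5% and 95.6% and H3K27ac at 12.8%, 11.0%, 13.5%, 13.4% and 16.9%. This is a description over sites of the same libraries, with 369 or 370 sites in a quintile. All 3 POLIIS2P libraries had a summit at 731 sites (39.6%), fewer than the 64.6% of all HNRNPU sites, promoters included, and 543 sites (29.4%) had none.

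The highest POLIIS2P values were found close to the ends of genes. The first was inside OPA3, a mitochondrial protein gene, on chromosome 19 at base 45528941 and 1514 bp from its end, with POLIIS2P percentiles of 99.93 in shHNRNPU#1 and 99.94 and 99.95 in shLUC. Its H3K4me1 percentiles were 49.3 and 61.6 with shHNRNPU#1, 79.2 and 80.6 with shHNRNPU#2, and 78.0 and 69.3 in shLUC. The next 4 lay inside SLC29A2, a nucleoside transporter gene, SPAG4, GGCX, the vitamin K-dependent carboxylase gene beside MAT2A, and IRF7, an interferon regulatory factor gene, at 1556, 1623, 1122 and 1266 bp from a gene end. These sites passed the 1000 bp rule by a small distance.

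The median distance of summits within 500 bp was 57.5 to 59 bp for H3K4me1, 63 to 68 bp for POLIIS2P and 72.5 to 92 bp for H3K27ac at the H3K4me1-only sites. Shares of all sites, with each site counted once per library, also depend on how often a summit was present. Counted so, the nearest H3K4me1 summit of a shHNRNPU library was within 50 bp in 41.5% of cases at the H3K4me1-only sites. POLIIS2P was that near in 22.7% and H3K27ac in 5.13%. At active sites the corresponding values were 43.4%, 31.4% and 32.3%.

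**Figure D4:**
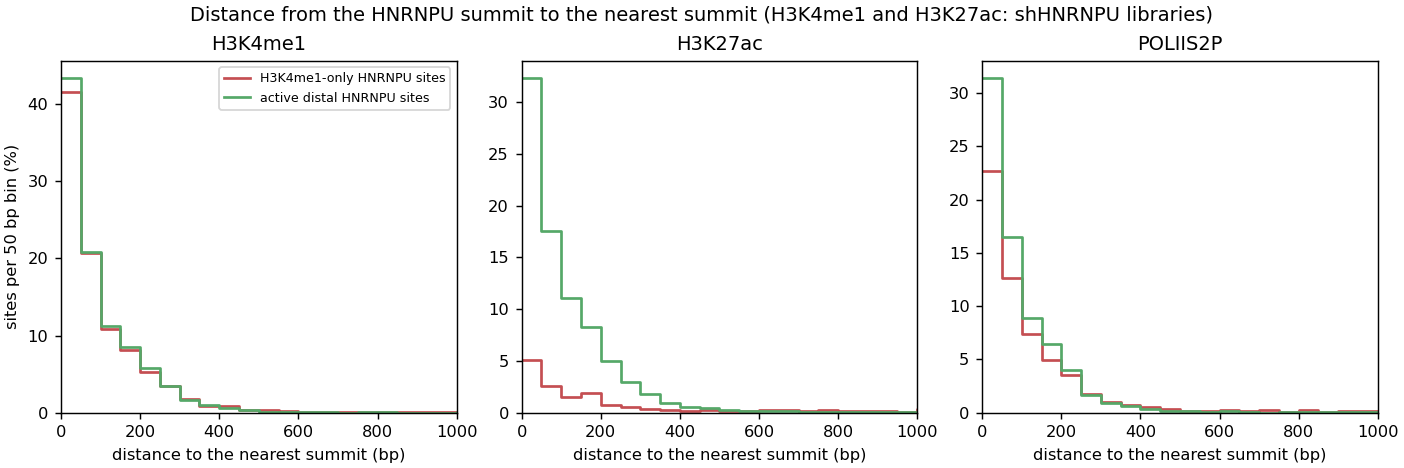
Share of sites (% per 50 bp bin, y axis) by distance in bp from the HNRNPU summit to the nearest summit (x axis), pooled over the shHNRNPU libraries for H3K4me1 and H3K27ac and over the 3 POLIIS2P libraries. Each site is counted once per library. H3K4me1-only sites and active sites start at 41.5% and 43.4% for H3K4me1, at 5.13% and 32.3% for H3K27ac and at 22.7% and 31.4% for POLIIS2P.

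Genes near the sites were counted in 9 lists of pluripotency, lineage and chromatin genes. Of 19122 protein-coding genes on the autosomes, 16.1% had an H3K4me1-only site inside or within 50 kb and 31.5% an active distal HNRNPU site. Neural regulators stood at 10 of 15 genes with an H3K4me1-only site and 3 of 15 with an active one. Among the former were PAX6, LHX2, NEUROG2, DLX1, DLX5, MEIS2, NR2F1, NR2F2 and ZEB2, transcription factors of the neural tube and forebrain. The HNRNPU relatives and nuclear matrix genes stood at 7 of 13 and 3 of 13, and the WNT genes at 6 of 14 and 9 of 14. The neighbours SAFB and SAFB2 were both counted through the same H3K4me1-only site. The remaining lists were nearer to the share of all genes for H3K4me1-only sites, with 3 of 20 pluripotency, 2 of 11 naive, 2 of 13 formative and primed, 3 of 14 mesendoderm and 3 of 16 Nodal and BMP genes and 2 of 9 writers, erasers and readers. The lists were chosen with earlier results known and differ in gene length and neighbourhood, so the counts are a description.

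The values at the neural sites stand beside those of all 1846 sites, of which 83.7% had H3K4me1 in 4 of 4 shHNRNPU libraries and 63.3% had H3K27ac in none. The rule itself required control H3K27ac to be absent. Inside PAX6, the eye and forebrain regulator, the site at base 31812650 of chromosome 11 had a mean H3K4me1 percentile of 85.7 over 4 of 4 libraries and POLIIS2P in 2 of 3. DLX5, of craniofacial and interneuron development, had a site 3.61 kb away with an H3K4me1 percentile of 98.3 and POLIIS2P in 3 of 3. LHX2 and NEUROG2 had H3K4me1 at mean percentiles of 51.5 and 83.7. MEIS2 had it at 24.8, NR2F2 at 70.8, ZEB2 at 82.7 and the NR2F1 sites at 30.6 and 89.1. The NR2F1 site at 30.6 had no POLIIS2P. The site near DLX1 had H3K4me1 in 2 and H3K27ac in 2 of 4 libraries. None of the sites of LHX2, PAX6, DLX5, NEUROG2, MEIS2, NR2F1 and NR2F2 had H3K27ac in any shHNRNPU library, while the ZEB2 site had it in 1 of 4.

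**Figure D5:**
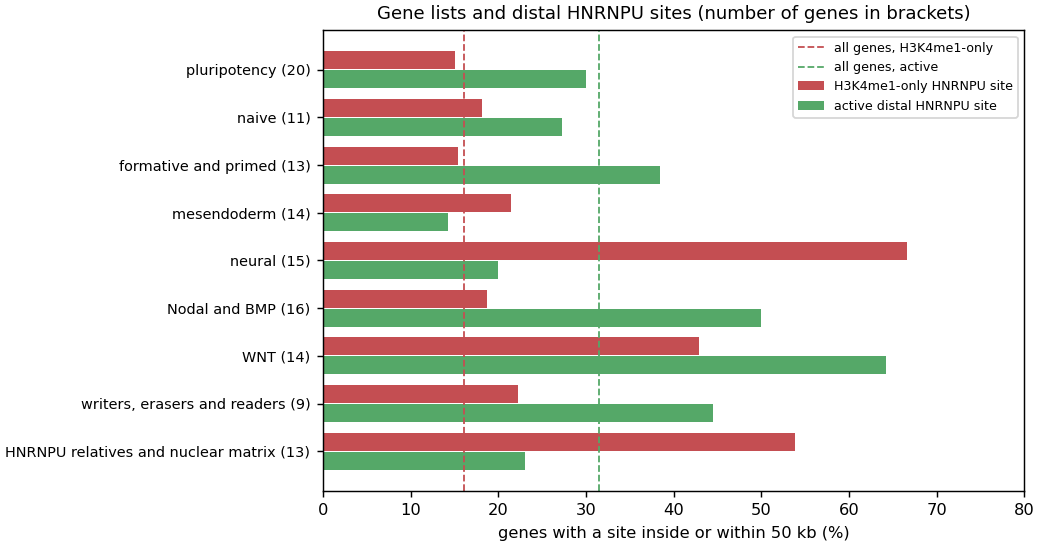
Share of genes (%, x axis) in each of 9 lists (y axis, number of genes in brackets) with a site inside or within 50 kb, for H3K4me1-only and active distal HNRNPU sites. Dashed lines are the shares over all 19122 genes, 16.1% and 31.5%. The neural bar for H3K4me1-only sites is at 66.7% and its active bar at 20.0%.

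Genes of the other lists had sites of mixed character. POU5F1, the core pluripotency factor, had a site 1.36 kb from its end, at base 31172044 of chromosome 6, with a mean HNRNPU percentile of 89.6, H3K4me1 in 3 of 4 and H3K27ac in 1 of 4 shHNRNPU libraries and POLIIS2P in 3 of 3 at a mean percentile of 90.3. L1TD1, an RNA-binding protein of pluripotent cells, had a site inside the gene with POLIIS2P in 3 of 3. Its H3K4me1 was in 4 of 4 shHNRNPU libraries at a mean percentile of 18.7. OTX2, a factor of primed cells and of the anterior brain, had a site inside the gene and others at 7.32 and 36.7 kb, with POLIIS2P in 3, 2 and 1 of 3 libraries. H3K4me1 was at these sites in 1, 4 and 4 of 4 shHNRNPU libraries. The site inside OTX2 had a mean control H3K4me1 percentile of 8.47. EOMES, a mesendoderm factor, had a site 3.69 kb away with an H3K4me1 percentile of 90.4 and no POLIIS2P. FOXA2 and CDX2, of endoderm and of trophectoderm and hindgut, had sites at 1.38 and 2.26 kb with POLIIS2P in 3 of 3 and no H3K27ac. H3K4me1 was in 2 of 4 shHNRNPU libraries at this FOXA2 site and in 4 of 4 at the CDX2 site.

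Signalling genes were represented by receptors and effectors. BMPR1A, a BMP receptor gene, had sites at 6.83, 21.6 and 27.8 kb with H3K4me1 in 4 of 4 libraries at mean percentiles of 78.4, 93.3 and 99.1, and POLIIS2P in 3, 3 and 1 of 3. Of the TCF/LEF factors of WNT signalling, LEF1, TCF7L1 and TCF7L2 had a site inside the gene. H3K4me1 was at these in 4 of 4 shHNRNPU libraries for LEF1 and TCF7L2 and in 2 of 4 for TCF7L1. A further TCF7L1 site at 13.3 kb had a mean HNRNPU percentile of 94.6 and H3K4me1 of 99.5. HNRNPU itself had a site 34.6 kb from its end, with H3K4me1 in 1 of 4 shHNRNPU libraries, H3K27ac in 2 of 4 and POLIIS2P in 3 of 3. Its paralog HNRNPUL2 had one at 5.10 kb, in the shared promoter region of BSCL2 and GNG3, with H3K4me1 at 96.6, no H3K27ac and POLIIS2P at 98.0.

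The sites were scattered. Chained at 10 kb they formed 1802 clusters, of which 1761 held 1 site, 38 held 2 and 3 held 3. The clusters of 3 spanned 10.7 kb near ARHGEF19 and CPLANE2 on chromosome 1, 13.7 kb at PAX9 on chromosome 14 and 18.6 kb at ATG16L2 and FCHSD2 on chromosome 11. POLIIS2P was in all 3 libraries at 3, 2 and 2 of their sites.

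Noncoding genes beside the sites were of several kinds. Apart from UBE2D3-AS1, LOC154761 with LOC112267988 and LOC105376957, the sites of highest HNRNPU score within 1000 bp of a noncoding end lay at the tRNA genes TRL-CAG2-1 and TRL-CAG2-2, at base 57300538 of chromosome 16, and at LINC02684, at base 135075929 of chromosome 11. The tRNA site had H3K4me1 in 4 of 4 libraries and POLIIS2P in 3 of 3 at a mean percentile of 84.5, and the LINC02684 site H3K4me1 in 2 of 4 and no POLIIS2P. Hairpins of 13 miRNA genes lay within 1000 bp of a site. MIR153-1 and MIR135B are shown because their mature forms are well known in neural and epithelial cells, with the seed (bases 2 to 8) in capitals, from RefSeq.
hsa-miR-153-3p: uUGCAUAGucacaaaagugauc
hsa-miR-135b-5p: uAUGGCUUuucauuccuauguga

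The MIR153-1 hairpin, on the minus strand at chr2:219294111-219294200, lay 647 bp from a site with a mean HNRNPU percentile of 89.6, POLIIS2P in 3 of 3 libraries at 86.7 and H3K27ac in 1 of 4. The MIR135B hairpin, on the minus strand at chr1:205448302-205448398, lay 472 bp from a site at 30.7 with POLIIS2P in 3 of 3 at 52.9 and H3K27ac in none. The miRNAs themselves were not measured.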

How the data were processed

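CUT&Tag libraries of H1 cells were analysed from the summit lists the authors deposited, 1 per library. The deposited score is the −log10 of a p-value or q-value, in the layout of MACS2 summit files, and was used only as a percentile within its list or as a filter. The deposited list of joint HNRNPU intervals has a score of 0 throughout and gave positions only. The submitters' processing notes name cutadapt, Bowtie2, SAMtools, MACS2, deepTools and hg38, with versions not given in the sources used here. The paper under which the series is listed describes other cells and gave no method. The protocol's antibody list names neither H3K4me1 nor POLIIS2P.

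From these lists, distances between summits and to RefSeq genes (GRCh38.p14) were computed with Python 3.11.15, numpy 2.4.6, pandas 2.3.3 and scipy 1.17.1, with percentiles by rank. The functions were tested on 2000 simulated sites and gave back 100% of them. Replicates follow the sample titles, and antibodies of the shLUC histone libraries the file names. Classes were compared within libraries by exact two-sided sign-flip permutation and shRNAs by exact permutation. Wilson intervals are at the 95% level. No column of samples of other series was used. The sites, gene lists and comparisons were chosen with earlier results of these data known. Sites were named by rule, as those with the highest HNRNPU, H3K4me1, H3K27ac or POLIIS2P percentile, those that lost H3K4me1, the largest clusters, those at noncoding ends and up to 4 genes per list, nearest first. The sequences shown, the other neural genes, OTX2, HNRNPU, L1TD1 and the miRNAs beyond that rule were picked after their values were seen. Alternatives were the mark distance, a score minimum of 5, the repeat and gene-end distances, the titles and leaving out each library. Chromosome 8 promoter windows were not used here, and sequences away from promoter windows are not shown. Sites of 1 listed gene are not reported here.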

Additional observations from a re-analysis of the deposited data

Results flagged for a closer look

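At sites chosen with shLUC repeat 2, H3K27ac went in opposite directions with the 2 shRNAs. Relative to the held-out shLUC library, the mean share was lower by 7.21 points with shHNRNPU#1 (-7.21) and higher with shHNRNPU#2 (7.82). At equal list length the differences were -2.22 and 2.39. Both libraries of each shRNA lay on the same side. The difference was not tested, since 1 control library was left, and sites chosen with repeat 1 did not show it. There, with all summits, both shHNRNPU#2 libraries were below the control (34.6% and 37.0% against 42.7%), and at equal list length 1 was above and 1 below (22.2% and 19.7% against 21.1%).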

How the results depend on the processing

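Of 174 recomputed values, 155 kept their direction where there was a test, moved by less than the spread between libraries where there was none, or stayed within 1.5 times a count. No tested value could change its side of the p threshold of 0.05 with so few libraries, so only its direction counted. A further 18 moved and 1 reversed. Values among the 155 can still differ much in size. With the antibodies by sample title the rule took 268 sites. There the POLIIS2P difference from active sites reversed to 0.80 points (p = 0.75, exact sign-flip permutation), H3K4me1 relative to active sites went from -3.22 to -75.2 points, H3K27ac with against without HNRNPU from 7.13 to 22.7, the held-out differences became -40.6 for H3K4me1 and 27.2 for H3K27ac, 135 sites had no H3K4me1 and 119 had H3K27ac in all shHNRNPU libraries, 59.0% were inside genes, 15.9% inside promoter windows and 0 neural genes were near. Sites with no H3K4me1 numbered 16 at a mark distance of 250 bp, 15 with a score minimum of 5 and 4 with HNRNPU repeats within 100 bp, and sites with H3K27ac in all libraries numbered 20 at 250 bp and 7 with repeats within 100 bp. Beyond 5000 bp from gene ends 46.8% were inside genes. The causes were not tested, beyond the other and fewer sites these settings select.

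At equal list length H3K27ac with against without HNRNPU was 4.67 points, and the differences between shRNAs were 2.57 for H3K4me1 and 3.82 for H3K27ac. Leaving out each library gave 9 to 20 sites with no H3K4me1, with 13 and 20 without shHNRNPU#2 replicate 1 and 2, and 17 to 41 with H3K27ac in all, with 26 and 41 without shHNRNPU#1 replicate 1 and 2, as fewer libraries have to meet the condition. The POLIIS2P difference between shHNRNPU#1 and shLUC went from -6.12 to 0.27 points and turned positive without shLUC replicate 1. With the repeat number as a replicate block the differences between shRNAs stayed at 5.12 and 13.2 points with a smallest possible p of 0.5 (exact permutation). Deviations of same-numbered repeats correlated at 0.0049 and 0.015, so the numbers were not taken as pairs. Sequencing depth was unknown, and 2 to 4 libraries per comparison cannot reach a p of 0.05.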
